A study of Mus musculus with 15 samples.

Results

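Claudins are the membrane proteins that form the strands of the tight junction, the seal between neighbouring epithelial cells. The transcripts of 10 claudin genes (Cldn1, Cldn2, Cldn3, Cldn4, Cldn5, Cldn7, Cldn8, Cldn12, Cldn15 and Cldn23) were followed through the liver and 4 sections of the intestine. They were taken from the deposited table by gene name, and each of the 10 had a single record among 23349 named genes. RNA-seq covered liver, duodenum, jejunum, ileum and large intestine. The mice were C57BL/6 males, wild type and 2 to 3 months of age, with 3 libraries per tissue and 15 in all. No animal was treated. Gallbladders had been taken off the livers and the gut had been rinsed of its contents, and each library came from a piece of whole organ, so that epithelium, muscle, vessels and immune cells were read together. In such bulk RNA, fewer cells of a type and less RNA per cell cannot be told apart. Libraries carry the name of their tissue and their title number. The labels do not say whether the 3 libraries of a tissue are 3 animals, so p-values rest on the spread between libraries, which may be technical.

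A strand of claudins in one cell binds a strand in the next, and the kind of claudin decides what may pass between the cells. Cldn2 and Cldn15 form pores for small cations and water, and in the mouse small intestine they carry the sodium that returns to the lumen for nutrient uptake. Cldn1, Cldn3, Cldn4, Cldn5 and Cldn8 are mostly described as sealing claudins, which close the gap to ions or solutes. In the liver the tight junctions of hepatocytes seal the bile canaliculus, while along the gut they separate the lumen from the tissue.

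All 10 genes passed the filter used for testing, which asked for 1 FPKM or more in 3 or more of 15 libraries, where FPKM counts fragments per length of transcript and per number of fragments mapped. Cldn1 passed through its liver libraries, and Cldn4, Cldn7, Cldn8, Cldn15 and Cldn23 passed through gut libraries. Since FPKM is per length, levels of different claudins can be set beside each other. Differences are on the log2(FPKM + 1) scale, which shrinks those of low genes, and a gene was called higher or lower where limma gave an adjusted p under 0.05 together with a log2 difference of 1 or more in size.

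The 250 bases before the annotated start are shown for 4 of the claudins: Cldn1, the liver claudin of the group, Cldn2 and Cldn15, the pore-forming pair, and Cldn7, the most abundant one in gut. Cldn7 has a pair of annotated starts. The sequences are from RefSeq on GRCm38.p6, read 5′ to 3′ on the gene's strand and ending at the base before the start. Capitals mark letters that match one of 9 short motifs.
Cldn1, chr16:26371840-26372089, minus strand: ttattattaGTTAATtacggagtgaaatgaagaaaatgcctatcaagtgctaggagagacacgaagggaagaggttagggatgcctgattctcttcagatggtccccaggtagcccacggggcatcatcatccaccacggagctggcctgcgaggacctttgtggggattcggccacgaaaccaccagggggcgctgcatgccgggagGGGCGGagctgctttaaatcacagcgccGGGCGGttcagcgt
Cldn2, chrX:139800558-139800807, plus strand: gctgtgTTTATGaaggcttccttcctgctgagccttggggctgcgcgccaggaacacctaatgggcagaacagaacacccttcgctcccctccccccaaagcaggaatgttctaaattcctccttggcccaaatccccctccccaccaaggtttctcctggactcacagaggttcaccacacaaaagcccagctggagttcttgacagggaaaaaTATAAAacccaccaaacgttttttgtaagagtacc
Cldn15, chr5:136967619-136967868, plus strand: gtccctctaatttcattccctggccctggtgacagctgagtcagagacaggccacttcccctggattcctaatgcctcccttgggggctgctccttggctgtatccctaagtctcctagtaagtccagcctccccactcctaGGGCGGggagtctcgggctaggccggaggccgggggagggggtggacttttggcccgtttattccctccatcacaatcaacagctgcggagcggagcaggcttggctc
Cldn7 first start, chr11:69964529-69964778, plus strand: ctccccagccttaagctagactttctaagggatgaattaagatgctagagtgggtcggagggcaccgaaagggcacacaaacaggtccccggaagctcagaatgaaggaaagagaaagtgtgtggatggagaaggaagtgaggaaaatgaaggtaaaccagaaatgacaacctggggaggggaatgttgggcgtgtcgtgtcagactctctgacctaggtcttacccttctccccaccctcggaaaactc
Cldn7 second start, chr11:69965171-69965420, plus strand: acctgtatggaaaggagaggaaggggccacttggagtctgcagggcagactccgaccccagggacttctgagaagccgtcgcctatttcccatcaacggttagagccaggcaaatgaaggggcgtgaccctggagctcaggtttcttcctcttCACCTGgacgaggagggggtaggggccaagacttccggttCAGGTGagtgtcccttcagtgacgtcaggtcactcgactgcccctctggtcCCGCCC

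The motifs searched on both strands were the TATA box with the letters TATAAA, the NF-Y box with CCAAT, the GC box with GGGCGG, the GATA factor word with AGATAA, the CDX word with TTTATG, the short HNF1 word with GTTAAT, the HNF4 word with CAAAGTCCA, the grainyhead word with AACCNGTT and the E-box with CAGGTG. No 2 of the matches shown overlap. Cldn2 had the TATA box, whose first base lies 35 bases before the start, and a CDX word 244 bases before it. A TATA box was found in 12.4% of the 32851 RefSeq promoter windows of the same length, and a CDX word in 10.8%. Cldn1 had 2 GC boxes, 42 and 14 bases before the start, and the short HNF1 word at 241 bases. A GC box was found in 32.7% of all windows and the short HNF1 word in 6.43%. Cldn15 held a GC box at 108 bases. The window before the second start of Cldn7 held a GC box at 6 bases and 2 E-boxes at 97 and 57 bases, a motif in 17.2% of windows, and the window before its first start held 0 of the 9 motifs. The G and C content was 52% for Cldn2, 55.6% for Cldn1 and 60.8% for Cldn15, against a median of 52.4% over all windows. RefSeq windows were matched for 8 of the 10 claudins, and Cldn8 and Cldn23 had no entry among them. A match of letters is a description of the sequence and not a binding site.

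Before the results, 3 libraries need a word. The library labelled jejunum 24 was nearest to ileum 27 among the jejunum and ileum libraries (Pearson r 0.976 over all tested genes), and ileum 24 was nearest to jejunum 27 (r 0.983). Ileum 25, however, was nearest to ileum 24 (r 0.976). Fabp6, the bile acid binding protein of the distal small intestine, stood at 6731 FPKM in jejunum 24 against 23.1 and 5.61 in the other jejunum libraries, and at 255 in ileum 24 against 6597 and 8112 in the other ileum libraries. Gata4, a transcription factor of the proximal small intestine, was at 4.82 FPKM in jejunum 24 beside 31.5 and 32.5 in jejunum 27 and 28. It was at 29.0 FPKM in ileum 24 beside 15.1 and 5.47 in ileum 25 and 27. Values without both libraries are given beside the claudin results whose call they alter, and for some others, and the libraries of jejunum and ileum are named one by one. Jejunum 24 and ileum 24 were picked by their expression in these data. Leaving them out keeps only jejunum 27 and 28 and ileum 25 and 27. The p-values and calls of that setting are thus a description and not support. Duodenum 28 carried stomach and Brunner gland transcripts, such as Tff2 at 7792 FPKM against at most 4.63 in any other library, and leaving it out changed 0 of the 90 claudin calls. Hepatocyte markers summed to between 55547 and 61643 FPKM in liver and to between 22.7 and 221 FPKM in gut, all 8 epithelial markers, among them Cdh1, Epcam and Vil1, averaged at least 1 FPKM in each gut section, and markers of squamous epithelium summed to at most 0.734 FPKM anywhere.

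The shares of the claudins differed between liver and gut. In liver, Cldn3, Cldn1, Cldn2 and Cldn12 made up most of the claudin transcript, whereas in gut Cldn7, Cldn3 and Cldn15 did. A smaller share is not a lower level. Cldn2 averaged 24.9 FPKM in liver and 29.7 to 56.1 in the gut sections, and Cldn12 18.6 and 11.2 to 18.2. The 10 claudins summed to 124 ± 4.75 FPKM in liver (SD, n = 3). In gut the sum was 1119 ± 122 FPKM for duodenum, 1035 ± 53.4 for jejunum, 1181 ± 89.9 for ileum and 969 ± 91.8 for large intestine. In liver Cldn3 held 39.8% ± 3.18 of that sum (SD, n = 3), Cldn1 20.9% ± 2.12, Cldn2 20.0% ± 1.22 and Cldn12 14.99% ± 1.69, with Cldn5 at 3.44% ± 0.629. In duodenum Cldn7 held 38.6% ± 3.11, Cldn15 30.2% ± 1.99 and Cldn3 24.7% ± 1.92. In large intestine Cldn7 held 41.2% ± 0.220, Cldn3 31.8% ± 1.28 and Cldn15 10.2% ± 1.37, and Cldn4 and Cldn8 came to 3.76% ± 1.67 and 3.44% ± 0.951. The share of Cldn7 thus stayed between 38.6% and 43.1% in the mean of every section, while that of Cldn15 went from 30.2% in duodenum over 22.4% ± 6.23 in jejunum and 19.4% ± 5.59 in ileum to 10.2% in large intestine. Jejunum 24 held 15.3% Cldn15 beside 25.1% and 26.85% in jejunum 27 and 28, and ileum 24 held 25.2% beside 18.98% and 13.998% in ileum 25 and 27, so that the means of the middle sections rest on libraries far apart. These shares do not depend on how whole libraries are scaled.

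**Figure D1:**
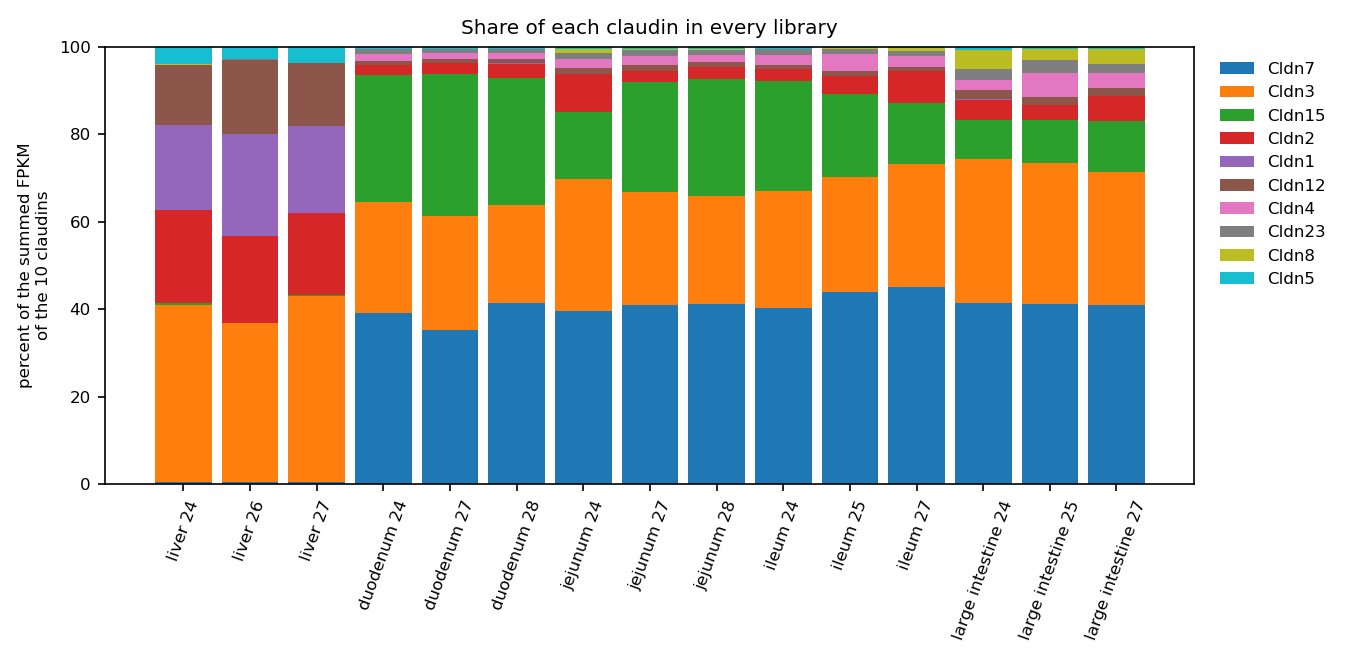
Share of each of the 10 claudins in their summed FPKM, in percent, with a stacked bar for each of the 15 libraries. The 3 liver bars are built of Cldn3, Cldn1, Cldn2 and Cldn12, and the gut bars of Cldn7, Cldn3 and Cldn15, with the Cldn15 band narrowest in large intestine (10.2% in the mean).

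Each section was then compared with liver. The 4 comparisons share the same 3 liver libraries, so they are given side by side and not as support for each other. Of the 10 claudins, 5 were called higher and 1 lower in duodenum, where 30.6% of the 13757 genes tested were higher and 9.19% lower. In jejunum 6 were higher and 1 lower (36.9% and 8.94% of all genes), in ileum 6 and 1 (34.3% and 9.24%) and in large intestine 6 and 1 (41.8% and 8.99%). The share of claudins called higher lay above that of all genes in each section. It cannot serve as support, since Cldn4, Cldn7, Cldn8, Cldn15 and Cldn23 passed the filter only through gut libraries. The claudins were also chosen with earlier results of these data known. The 1 of 10 called lower is close to the share of all genes, and that gene passed only through liver libraries. Cldn3, Cldn4, Cldn7, Cldn15 and Cldn23 were the 5 called higher in every section, Cldn8 joined them in jejunum, ileum and large intestine, and Cldn1 was the one called lower throughout. The median log2 difference of the claudins was 1.45 for duodenum, 2.04 for jejunum, 2.30 for ileum and 3.60 for large intestine, beside 0.58, 0.73, 0.68 and 0.83 for all genes. Median-of-ratios scaling removes this shift, to a median of at most 0.03 over all genes, and evens out the calls over all genes, from 4211 higher and 1264 lower to 2521 and 2216 in duodenum and from 5750 and 1237 to 2770 and 2502 in large intestine. With it 7 claudins were called in duodenum and 8 in each of the other sections, since Cldn12 joined Cldn1 on the lower side.

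Along the gut the claudins differed in how far their levels changed between sections. Over the 4 sections a call asked for an adjusted p under 0.05 in limma's F test and a range of the section means of at least 1. Of the 10, 3 were called different (20.9% of all genes were): Cldn8, Cldn15 and Cldn23. Cldn12 passed on p (adjusted p 6.12e-05), but its range of 0.66 fell short. Without jejunum 24 and ileum 24 there were 5, as Cldn2 and Cldn4 joined them, where 21.9% of all genes were called. Large intestine against the mean of the 3 small sections gave 1 claudin higher, Cldn8, and 1 lower, Cldn15, where 8.78% of all genes were higher and 5.84% lower. Large intestine against ileum gave the same 2 genes (8.29% and 5.5% of all genes). The split over all genes in large intestine against the small sections was 1208 higher and 804 lower, and it was 896 and 923 after median-of-ratios scaling and 2315 and 600 with the same sum of FPKM in each library. Neither the step from duodenum to jejunum (0.807% and 0.981% of all genes) nor that from jejunum to ileum (0% and 0%) held a called claudin. At an unadjusted p under 0.05, 2 claudins passed in the first of these steps and 1 in the second, where 5929 and 927 of the 13757 genes did (43.1% and 6.74%), and limma without its trend and robust settings called 0 in both.

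**Figure D2:**
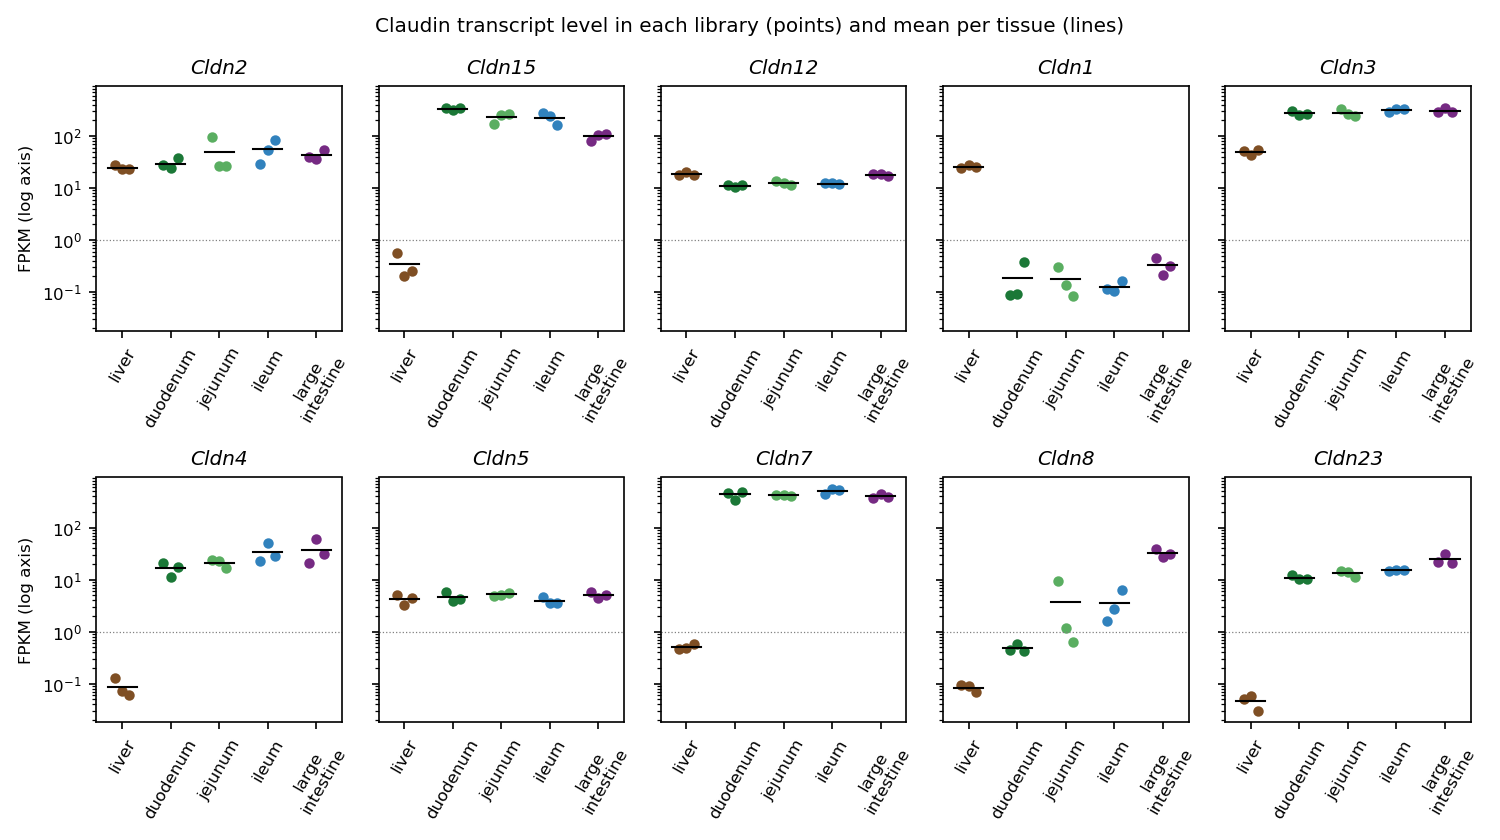
FPKM of each claudin on a log axis, with a point for each library, a line at the mean of the 3 libraries of a tissue and a dotted line at 1 FPKM. Cldn1 lies above 1 FPKM in liver alone, Cldn4, Cldn7, Cldn15 and Cldn23 lie above it in all gut libraries and below it in liver, and Cldn5 and Cldn12 lie within a narrow band.

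Of the pore-forming claudins, Cldn15 (chr5:136967869-136975845 on mm10, plus strand, 4 to 6 exons in its GENCODE M21 transcripts) had the steepest decline. Its level was 349, 318 and 340.5 FPKM in the duodenum libraries 24, 27 and 28, 167, 256 and 266 in jejunum 24, 27 and 28, 276, 242 and 164 in ileum 24, 25 and 27, and 80.9, 105 and 112 in large intestine 24, 25 and 27. Liver held 0.560, 0.208 and 0.251 FPKM. Every duodenum library lay above every jejunum and ileum library, jejunum and ileum overlapped, every small intestinal library lay above every large intestinal one, and all lay far above liver. The mean of the 3 small sections was 2.66 times that of large intestine, a log2 difference of -1.37 (SE 0.17, adjusted p 1.27e-05), and against ileum alone it was -1.17 (SE 0.21, adjusted p 0.000428). Jejunum against duodenum stood at -0.57 (SE 0.21) and was not called (adjusted p 0.0574), and without jejunum 24 and ileum 24 it came to -0.36 (adjusted p 0.219). Against liver the log2 difference was 7.98 for duodenum (SE 0.21, adjusted p 2.43e-13), 7.41 for jejunum, 7.39 for ileum and 6.22 for large intestine. With libraries set to the same sum of FPKM, large intestine against the small sections came to -0.97 and against ileum to -0.71, both short of the size asked for, and with an offset for 8 epithelial markers the difference from ileum came to -0.93, while the direction stayed the same in each.

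Cldn2 (chrX:139800808-139811388, plus strand, 2 exons), the other pore former, was present in every tissue and varied widely between the libraries of jejunum and of ileum. Liver held 27.3, 23.7 and 23.6 FPKM, duodenum 27.4, 24.002 and 37.7, and large intestine 40.4, 36.3 and 53.8. Jejunum 24 stood at 96.7 FPKM beside 26.5 and 26.8 in jejunum 27 and 28, and ileum 24 at 28.7 beside 54.8 and 84.7 in ileum 25 and 27. In the order of tissue means (ileum 56.1, jejunum 50.0, large intestine 43.5, duodenum 29.7, liver 24.9 FPKM) the libraries of each tissue overlapped with those of the next. With all 15 libraries Cldn2 passed no comparison: ileum against liver gave a log2 difference of 1.02 (95% interval -0.01 to 2.04, adjusted p 0.0615), and ileum against jejunum 0.31 (-0.72 to 1.33, adjusted p 0.936). Without jejunum 24 and ileum 24, ileum against jejunum gave 1.32 (SE 0.24, adjusted p 0.0106) and ileum against liver 1.42 (SE 0.22, adjusted p 6.43e-05), both called higher. The range of Cldn2 over the 4 sections was then 1.32 with an adjusted p of 0.00116, and it was called. In that setting 85 of all genes were called higher and 113 lower in ileum against jejunum, against 0 with all libraries. Both libraries were picked by their expression, so these calls cannot serve as support.

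The balance of the pore formers differed along the gut. Cldn2 made up 98.7% ± 0.615 of the sum of Cldn2 and Cldn15 in liver (SD, n = 3), 8.09% ± 1.63 in duodenum and 30.5% ± 4.23 in large intestine. In jejunum it made up 36.6% in library 24 and 9.39% and 9.15% in 27 and 28, and in ileum 9.44% in library 24 and 18.5% and 34.0% in 25 and 27. Every large intestinal library was above every duodenum library, and the number 24 libraries of jejunum and ileum lay at the other section's end of the scale.

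**Figure D3:**
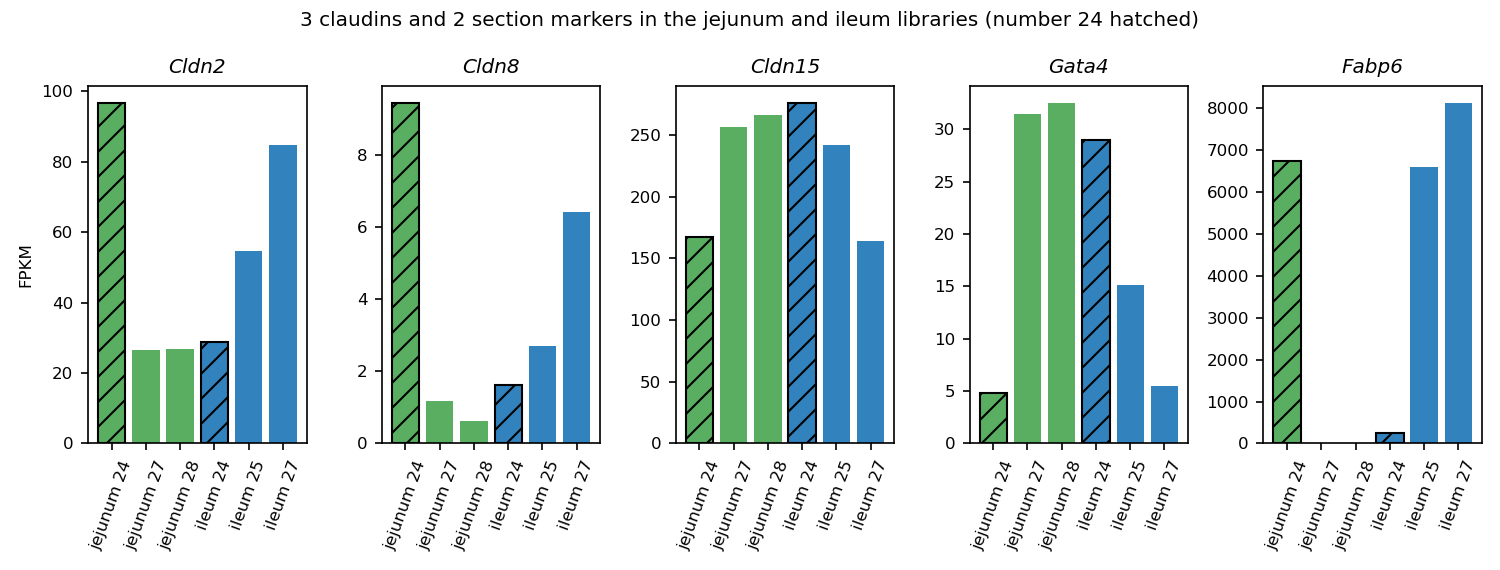
FPKM of Cldn2, Cldn8, Cldn15 and the section markers Gata4 and Fabp6 in the 6 libraries labelled jejunum and ileum, with number 24 hatched. Jejunum 24 has the highest Cldn2 (96.7) and Cldn8 (9.43) of the 6 and carries Fabp6 at 6731, while ileum 24 carries Fabp6 at 255 and the highest Cldn15 (276).

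Cldn12 (chr5:5505015-5514976, minus strand), which has been tied to calcium passage in mouse intestine together with Cldn2, had a narrow range over the 5 tissues. It stood at 17.6, 20.1 and 17.96 FPKM in liver, at 11.6, 10.4 and 11.5 in duodenum, at 13.9, 12.8 and 11.6 in jejunum, at 12.3, 12.3 and 12.1 in ileum and at 19.1, 18.4 and 17.0 in large intestine. Large intestine and liver overlapped, and all their libraries lay above those of the small intestine. Large intestine against the small sections gave a log2 difference of 0.56 (SE 0.07, adjusted p 7.99e-06), and duodenum against liver -0.68 (SE 0.08, adjusted p 2.62e-06), which passed on p and fell short of the size asked for. The liver comparison depends on the scaling: after median-of-ratios scaling, which brings the median difference of all genes from 0.58 to 0.03 in duodenum, Cldn12 was called lower than liver in all 4 sections, from -1.43 in duodenum to -1.05 in large intestine, and after quantile normalization in the 3 small sections (-1.16, -1.07 and -1.10).

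Among the sealing claudins, Cldn1 (chr16:26356646-26371839, minus strand) was the liver gene. Liver held 24.9, 27.7 and 24.9 FPKM, and the 12 gut libraries lay between 0.0856 and 0.458. Gut was lower by a log2 of 4.51 in duodenum (difference -4.51, SE 0.11, adjusted p 1.43e-13), with -4.51 for jejunum, -4.57 for ileum and -4.34 for large intestine. On the scale of plain means liver was 78.5 times large intestine, the gut section with the highest mean (0.329 ± 0.123 FPKM, SD, n = 3). In gut Cldn1 was under 1 FPKM in every library, so its order among sections says little, and the ranges of neighbouring sections overlapped.

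Cldn3 (chr5:134986214-134987476, plus strand, a single exon) was the claudin shared by liver and gut at a high level. It stood at 51.9, 43.2 and 53.4 FPKM in liver and between 244 and 344 FPKM in the 12 gut libraries. No gut library came near the liver range, and the ranges of neighbouring sections overlapped. The log2 difference from liver was 2.45 for duodenum (SE 0.13, adjusted p 7.92e-10), 2.47 for jejunum, 2.67 for ileum and 2.62 for large intestine. Large intestine differed from the small sections by 0.09 (95% interval -0.15 to 0.32). GENCODE places the antisense gene Wbscr25 over this locus, and without strand its reads and those of Cldn3 cannot be told apart.

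Cldn4 (chr5:134945124-134946934, minus strand, a single exon), close to Cldn3 on the same chromosome, was a gut gene of middling level with a wide spread. Liver held 0.128, 0.0711 and 0.0605 FPKM, duodenum 20.5, 11.4 and 17.7, jejunum 23.6, 22.5 and 16.9, ileum 22.8, 49.7 and 28.03, and large intestine 20.8, 59.9 and 31.7. The number 25 libraries of ileum and large intestine were the highest of their sections, and the ranges of neighbouring sections overlapped. Gut was above liver by a log2 of 3.98 for duodenum (SE 0.35, adjusted p 3.52e-07), 4.33 for jejunum, 4.91 for ileum and 5.02 for large intestine. Large intestine against the small sections came to 0.61 (95% interval -0.02 to 1.24, adjusted p 0.086), and the range of 1.04 over the 4 sections had an adjusted p of 0.0558. Without jejunum 24 and ileum 24 that range was 1.17 with an adjusted p of 0.0494, and without large intestine 24 it was 1.38 with an adjusted p of 0.0142.

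Cldn7 (chr11:69964779-69967886, plus strand, 3 to 5 exons), which in gut epithelium sits along the lateral membrane as well as at the tight junction and binds Epcam there, was the most abundant claudin of each gut section in the mean. Duodenum held 471, 346 and 486 FPKM, jejunum 432, 418 and 408, ileum 440.1, 561 and 528, and large intestine 368, 441 and 389, against 0.459, 0.476 and 0.575 in liver. The gut sections overlapped, and all of them were far above liver. On the log2(FPKM + 1) scale its difference from liver was the largest of the 10 claudins in each section, 8.16 for duodenum (SE 0.13, adjusted p 1.27e-15), 8.13 for jejunum, 8.40 for ileum and 8.05 for large intestine. On plain means the order in duodenum was the other way, with Cldn7 at 863 times and Cldn15 at 988 times liver. Large intestine was at -0.18 against the small sections (95% interval -0.41 to 0.06).

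Cldn8 (chr16:88560826-88563183, minus strand, a single exon), a sealing claudin of distal colon and kidney tubule, had the steepest rise. Large intestine held 39.5, 27.3 and 31.5 FPKM, while duodenum held 0.439, 0.571 and 0.422 and liver 0.0957, 0.0888 and 0.0680. Between these ends, jejunum 24 stood at 9.43 FPKM beside 1.17 and 0.626 in jejunum 27 and 28, and ileum 24 at 1.62 beside 2.71 and 6.41 in ileum 25 and 27. Every large intestinal library lay above every other one, every ileum and jejunum library lay above duodenum, and jejunum and ileum overlapped. The mean of large intestine was 12.6 times that of the small sections, a log2 difference of 3.61 (SE 0.46, adjusted p 3.47e-05), and without jejunum 24 and ileum 24 it was 3.77 (adjusted p 7.83e-09). Without those libraries ileum was also higher than jejunum, by a log2 of 1.48 (SE 0.27, adjusted p 0.0106), where the value with all libraries was 0.32 (95% interval -0.92 to 1.56). Jejunum against liver was called with all libraries (1.62, adjusted p 0.0183), but without them it came to 0.79 and fell short of the size asked for, and with jejunum 24 alone left out it was the same 0.79. Duodenum against liver stood at 0.45 (adjusted p 0.479), ileum at 1.94 (adjusted p 0.00699) and large intestine at 4.95 (adjusted p 3.93e-06).

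Cldn23 (chr8:35824709-35826559, minus strand), a claudin whose part in the junction is less studied, had smaller differences in the same direction. It stood at 12.0, 10.1 and 10.3 FPKM in duodenum, at 14.7, 13.8 and 11.2 in jejunum, at 14.9, 15.4 and 15.2 in ileum and at 21.5, 31.6 and 20.5 in large intestine, against 0.0498, 0.0578 and 0.0295 in liver. Large intestine lay above ileum and ileum above jejunum in all libraries, and jejunum and duodenum overlapped. Large intestine had 1.88 times the mean of the small sections, a log2 difference of 0.85 (SE 0.11, adjusted p 2.43e-05), which passed on p and fell short of the size asked for. The range over the 4 sections, 1.09 (adjusted p 0.000112), passed, but it came under 1 after median-of-ratios scaling (0.82), after quantile normalization (0.97), with the epithelial marker offset (0.94) or without large intestine 25 (0.90).

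Cldn5 (chr16:18776847-18778262, plus strand, a single exon), the claudin of blood vessel endothelium, was level across the tissues in FPKM. Liver held 5.11, 3.28 and 4.50 FPKM, and the gut libraries lay between 3.496 and 5.82. All neighbouring tissues overlapped. Differences from liver ran from -0.10 in ileum (95% interval -0.43 to 0.22) to 0.24 in jejunum (-0.09 to 0.56), and large intestine stood at 0.15 against the small sections (-0.12 to 0.42). The median of all genes lay above liver by 0.58 in duodenum and 0.83 in large intestine, so the liver comparison depends on the scaling. The 12 endothelial markers, among them Pecam1 and Cdh5, summed to between 68.0 and 75.5 FPKM in liver and between 50.5 and 94.7 FPKM in gut. Of the 12, 3 were called higher and 1 lower than liver in duodenum (30.6% and 9.19% of all genes). It was 4 and 0 in jejunum (36.9% and 8.94%), 3 and 1 in ileum (34.3% and 9.24%) and 4 and 0 in large intestine (41.8% and 8.99%). Markers of sinusoidal and lymphatic endothelium summed to between 97.7 and 108 FPKM in liver and between 11.4 and 32.6 in gut.

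**Figure D4:**
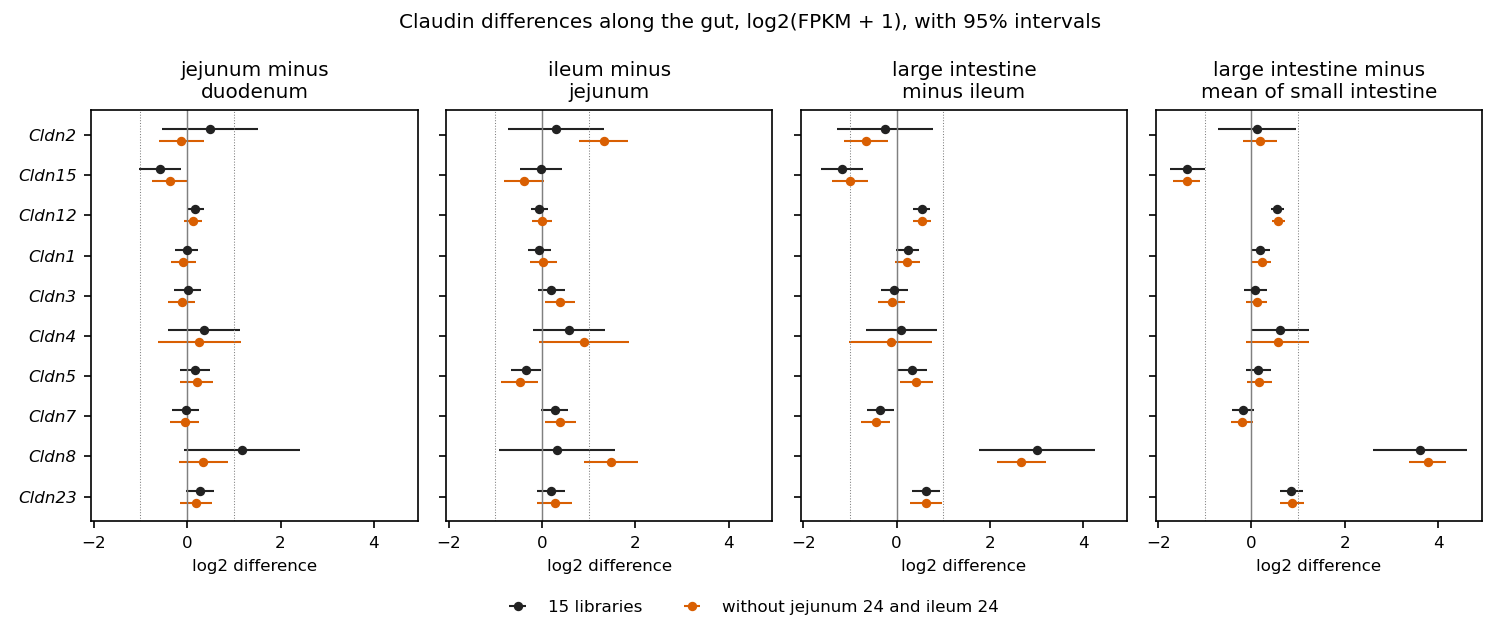
Log2 difference of each claudin in 4 comparisons along the gut, with 95% intervals, from all 15 libraries (black) and without jejunum 24 and ileum 24 (orange), with dotted lines at -1 and 1. Cldn8 lies to the right (3.61) and Cldn15 to the left (-1.37) in large intestine against the small intestine, and for ileum against jejunum Cldn2 and Cldn8 move past 1 without the 2 libraries.

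Cell type markers also changed along the gut, beside the claudins called different over the 4 sections. Smooth muscle markers (9 of 9 in the table) summed to between 2769 and 4084 FPKM in large intestine and to between 659 and 1403 in the small sections. Colonocyte markers (9 of 10 in the table) summed to between 4119 and 6129 FPKM in large intestine and to between 324 and 1275 in the small sections. Enterocyte markers summed to between 630 and 1157 FPKM in large intestine and to between 3637 and 16092 in the small sections. Of all genes, 8.78% were higher and 5.84% lower in large intestine than in the small sections. In the same comparison 9 of 9 smooth muscle markers and 7 of 8 colonocyte markers tested were higher, and 10 of 11 enterocyte markers were lower. The lists were chosen with earlier results of these data known, so the counts are a description. Paneth cell markers summed to between 93.7 and 2275 FPKM in large intestine and to between 13109 and 58709 in the small sections, with 6 of 7 lower. Goblet cell markers summed to between 14415 and 16995 FPKM in large intestine and to between 6477 and 13692 in the small sections, with 4 of 9 higher. Crypt and proliferation markers summed to between 85.8 and 94.6 FPKM against 246 to 514, with 2 of 9 lower, and immune markers to between 16.5 and 45.1 against 28.9 to 109, with 3 of 9 lower. The groups overlapped for the immune markers and for 0 of the other 6 lists. No defining marker of these lists was at 0 throughout a gut section. Their part in the differences of Cldn8, Cldn15 and Cldn23 was not tested.

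Across the 12 gut libraries, Cldn8 and Cldn15 ran in opposite directions on the log2 scale (Pearson r -0.98), and so did Cldn12 and Cldn15 (r -0.93). Cldn8 ran with Cldn12 (r 0.94) and with Cldn23 (r 0.89). These libraries share 4 tissues, so the values describe the pattern over sections and have no test.

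Under other claudin or claudin-domain names 16 records were found in the table, among them Cldnd2 and the records listed as Cldn25 and Cldn26, which RefSeq has as Cldnd1 and Tmem114. Of the 16, 13 stayed under 1 FPKM in every library. Cldn18, the stomach claudin, was at 5.74 FPKM in duodenum 28 and at most 0.0640 elsewhere. Cldn14, a sealing claudin known for its part in the inner ear and in kidney calcium handling, passed the filter. It held 4.87, 12.1 and 6.53 FPKM in liver, 2.90, 1.74 and 0.893 in large intestine and at most 0.0973 in any small intestinal library. Its log2 difference from liver was -2.97 in duodenum (SE 0.26, adjusted p 1.65e-07) and -1.61 in large intestine, and large intestine was higher than the small sections by 1.37 (SE 0.21, adjusted p 0.000107). A record listed as Cldn25 (chr16:58727910-58734247) also passed, but RefSeq has Cldnd1, a claudin-domain gene outside the classical family, at that place. It averaged 8.99 FPKM in liver and between 23.4 and 44.8 in the gut sections, and was called higher than liver in each, by 2.20 in duodenum (adjusted p 2.67e-07) to 1.28 in large intestine.

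The partners of the claudins were followed as 4 lists: other membrane proteins of the junction, such as occludin, tricellulin and the angulins, the cytoplasmic scaffold, such as the zonula occludens proteins, the adhesion proteins of adherens junction and desmosome, and genes known to regulate claudins. Their counts against liver are to be read beside those of all genes given above, which were 30.6% higher and 9.19% lower in duodenum and 41.8% and 8.99% in large intestine, with jejunum and ileum between them on the higher side. Like those of the claudins, these counts and medians cannot serve as support. Some members, such as Epcam and Cdx1, passed the filter only through gut libraries. Of the 22 regulators, 9 averaged at least 1 FPKM in liver and 21 in each gut section. Of the 14 membrane proteins tested, 8 were higher and 1 lower than liver in duodenum, 9 and 1 in jejunum, 8 and 1 in ileum and 10 and 1 in large intestine. Epcam, the adhesion molecule that binds Cldn7, had the largest difference in each, from 8.27 in duodenum to 8.65 in ileum (adjusted p 7.07e-16 and 4.24e-16), and stood at 0.843 FPKM in liver and 572 in duodenum. Ildr2, an angulin, was the one lower in each, at -1.91 in duodenum (adjusted p 1.95e-10). The list's median log2 difference from liver ran from 1.19 in duodenum to 1.86 in large intestine, against 0.58 and 0.83 for all genes. The 1 of 14 called lower is close to the share of all genes.

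Of the 23 scaffold genes tested, 11 were higher and 2 lower in duodenum than in liver, 12 and 1 in both jejunum and ileum, and 14 and 0 in large intestine. The 2 of 23 lower in duodenum is close to the share of all genes there (9.19%). Tjp3, which links claudins to actin, led jejunum (3.06) and ileum (3.26), Arhgef2 led duodenum (2.84), and Csda, also known as ZONAB, led large intestine (3.41). Cgnl1, the paracingulin gene, was the lowest in the 3 small sections, at -2.40, -2.05 and -2.26. It averaged 10.7 FPKM in liver, 1.23 for duodenum, 1.87 for jejunum, 1.44 for ileum and 9.56 for large intestine, so that liver and large intestine were at -0.15 (adjusted p 0.34).

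Of the 16 adherens junction and desmosome genes tested, 12 were higher than liver in duodenum and in large intestine and 14 in jejunum and in ileum, with 0 lower, beside 30.6% to 41.8% of all genes higher. Without jejunum 24 and ileum 24 it was 12 in jejunum and 14 in ileum. Cdh17, the intestinal cadherin, led all 4, from 8.10 in duodenum (adjusted p 1.94e-15) to 6.92 in large intestine. Of the 22 regulators, 16 were higher in duodenum, jejunum and large intestine and 15 in ileum, with 1 lower, Gata4 in large intestine (-2.65). Spint1, a serine protease inhibitor, led duodenum (6.65), Vdr, the vitamin D receptor, led jejunum (6.54) and ileum (6.63), and Cdx1, a homeobox factor of gut, led large intestine (7.22).

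In large intestine against the small sections, 8.78% of all genes were higher and 5.84% lower. Among membrane proteins 1 of 14 was higher: Ildr1, an angulin of the tricellular junction, averaged 51.9 FPKM in large intestine and 0.991, 1.92 and 1.99 in duodenum, jejunum and ileum, a log2 difference of 4.398 (SE 0.22, adjusted p 2.61e-09). Against ileum alone Lsr, the angulin named lipolysis-stimulated receptor, was lower (-1.12, adjusted p 6.65e-05). Of the 23 scaffold genes 2 were higher, Cgnl1 (2.09, adjusted p 5.32e-09) and Prkci (1.12), an atypical protein kinase of the polarity complex. Of the 16 adhesion genes 1 was lower, Cdh17 (-1.08, adjusted p 2.53e-06). Of the 22 regulators 5 were higher and 2 lower, led by Klf4 (2.35, adjusted p 5.09e-09), a factor of goblet and surface cells, and by Gata4 (-4.21, adjusted p 3.24e-05). Wnk4, a kinase that acts on claudins, was higher by 1.87, and Hnf4g, a nuclear receptor of enterocytes, was lower by 3.04 (difference -3.04). The steps from duodenum to jejunum and from jejunum to ileum held 0 called genes of the 4 lists with all libraries, where 0.807% and 0.981% of all genes were called in the first and 0% in the second. Without jejunum 24 and ileum 24 Gata4 was lower in ileum than in jejunum (-1.69, adjusted p 0.0197), and the first step again held 0, with 0.283% of all genes higher and 0.443% lower.

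**Figure D5:**
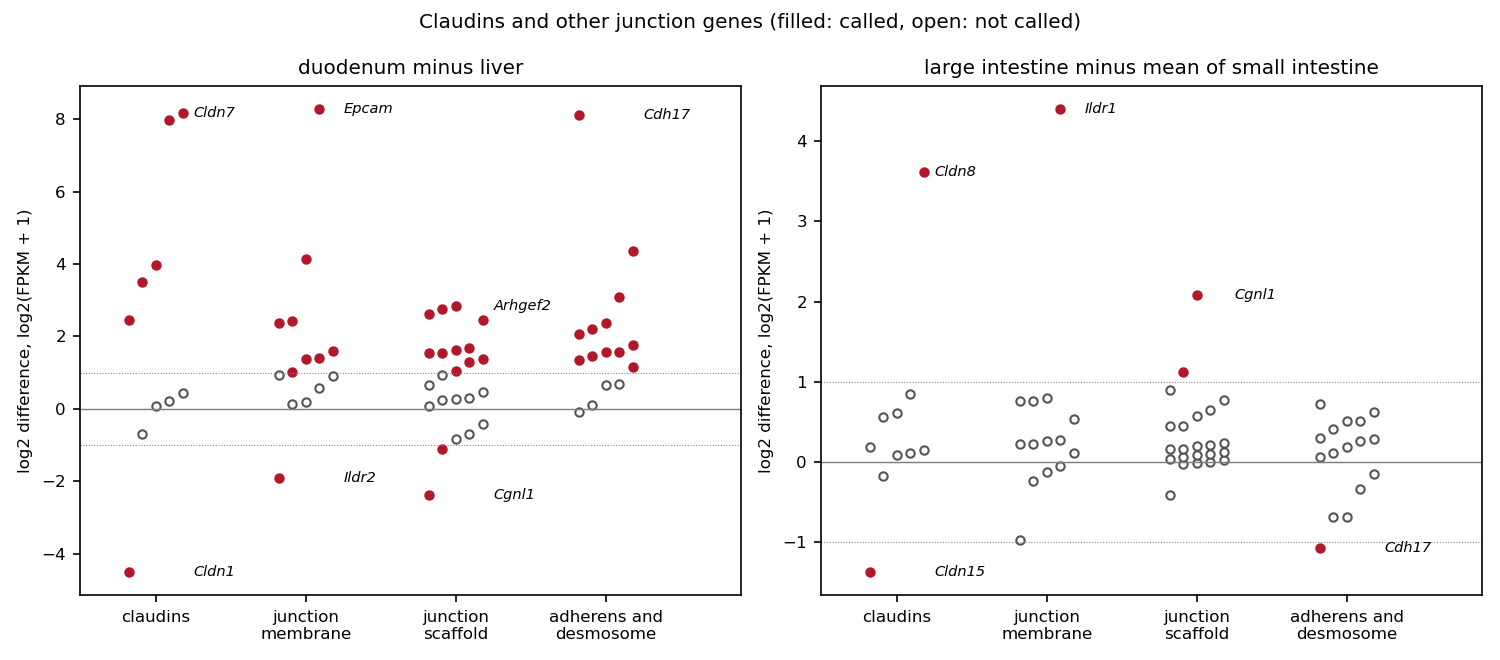
Log2 difference of each tested gene of the claudin, junction membrane, junction scaffold, and adherens and desmosome lists, with called genes filled and others open, for duodenum minus liver (left) and large intestine minus the mean of the small intestine (right). The extremes of the claudins are Cldn7 (8.16) and Cldn1 (-4.51) on the left and Cldn8 (3.61) and Cldn15 (-1.37) on the right, with Ildr1 at 4.398 above them.

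For the 8 claudins whose tissue means spanned at least 1 on the log2 scale, the genes with the most similar pattern over the 15 libraries were listed by Pearson r of log2(FPKM + 1), as a description of 5 shared tissues. Cldn7 was nearest to Epcam (r 0.9997), 9130017N09Rik and Lad1, Cldn15 to Fbp2 (r 0.999), Ovol1 and Calml4, and Cldn1 to Slc6a12 (r 0.998), C9 and Hrg. Cldn23 was nearest to Cnnm4 (r 0.998), Cdx1 and F2rl1, and Cldn3 to Efnb1 (r 0.996), Laptm4b and Myo1d. Cldn8 was nearest to Il17re (r 0.992), Mboat1 and Aim2, Cldn4 to Capza2 (r 0.989), Jup and Chmp2b, and Cldn2, with the lowest likeness of the 8, to Defb37 (r 0.938), Bex1 and Mapk4. Within the 12 gut libraries alone, Cldn8 kept an r of 0.99 with Il17re and Cldn15 one of 0.98 with Fbp2, while Cldn7 had 0.90 with Epcam and 0.55 with Lad1. The 24 pairs ranged from 0.55 to 0.99 within gut, where Cldn1 was under 1 FPKM throughout and had 0.68 with C9.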

How the data were processed

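Cufflinks FPKM values were deposited by the authors as 1 table of 23845 gene records and 15 libraries, and no value column was left unmatched. The submitters' processing notes name the tools Cufflinks 2.0.0, TopHat2 2.0.3, SAMtools 0.1.18, Bowtie 0.12.8, FastQC and CASAVA, and the build mm10. Per the labels, RNA had an integrity number above 7.0, and 3 µg went into a TruSeq RNA kit. Depth is unknown and the strand setting is not given in the sources used here.

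Records sharing a gene name were summed (754 records, without the 27 where a date stands in place of a symbol), which left 23349 genes, and 13757 had at least 1 FPKM in at least 3 libraries. In limma 3.58.1 (R 4.3.3, statmod 1.5.0), log2(FPKM + 1) of all 15 libraries was modelled by tissue, with trended and robust eBayes and Benjamini-Hochberg adjustment over all genes per comparison. A called gene had an adjusted p under 0.05 and a log2 difference of at least 1. For the F test over the 4 sections, the range of the section means took the place of the difference. The differences of a claudin are differences of tissue means of logs, and ratios are of plain means. Tables, motif searches and figures used Python 3.11.15, pandas 2.3.3, numpy 2.4.6 and matplotlib 3.10.9, and the fit was tested on simulated data. Genome positions are from GENCODE M21 and RefSeq tables.

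The claudins, the gene lists and the motifs were chosen with earlier results of these data known. The genes named are the 10 claudins, other claudins passing the filter, and for each list the genes called furthest up and furthest down against liver and in large intestine against the small sections. Lsr, Prkci, Wnk4, Hnf4g, Cldn18 and the section markers were named after their values were seen. Alternatives tried were other pseudocounts, filters and scalings, an epithelial marker offset, plain eBayes, a replicate block, records kept apart, each library left out, and jejunum 24 and ileum 24 left out together.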

Additional observations from a re-analysis of the deposited data

How the results depend on the processing

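Of the 90 claudin values (10 genes in 9 comparisons), 90 kept their call with a pseudocount of 0.1 or 0.5, without a filter, with a filter at 5 FPKM and with records kept apart. It was 88 with plain eBayes, 84 with quantile normalization, 85 with median-of-ratios scaling, 83 with the same sum of FPKM and 84 without jejunum 24 and ileum 24. In these settings 0 calls turned from higher to lower or the reverse. The sign of small differences without a call could change. Cldn2 in jejunum against duodenum, for one, went from 0.48 to -0.12 without jejunum 24 and ileum 24. Without those 2 libraries, 2 claudins in place of 0 were called in ileum against jejunum, and 5 in place of 3 among the 4 sections. With the epithelial marker offset, 1 in place of 2 was called in large intestine against ileum. Leaving out 1 library at a time gave 6 to 6 claudins called in duodenum against liver, 6 to 7 in jejunum, 7 to 8 in ileum and 7 to 7 in large intestine, 0 to 1 in jejunum against duodenum (Cldn8 without jejunum 28, 1.69, adjusted p 0.0367 in limma), 0 to 0 in ileum against jejunum, 2 to 2 in large intestine against ileum and against the small sections, and 2 to 4 among the sections. Cldn2 was called higher than liver in ileum with plain eBayes (1.02) and in large intestine with the same sum of FPKM (1.20), where Cldn4 (1.005) and Cldn23 (1.24) were also called against the small sections. Cldn8 in jejunum and ileum lost its call against liver with quantile normalization (0.79 and 1.17). With all records under claudin names in the sum, among them the one at the Cldnd1 locus, the liver shares became 35.0% for Cldn3, 18.3% for Cldn1, 17.6% for Cldn2 and 13.1% for Cldn12, and that of Cldn7 39.2% in jejunum and 40.1% in large intestine, since more genes enter the sum. No pairing by library number was seen. Deviations of same-numbered libraries correlated at 0.10, -0.05 and 0.09 between duodenum and jejunum and at 0.13, -0.05 and -0.02 between ileum and large intestine. Over all tissue pairs they ran from -0.49 (jejunum and ileum 24) to 0.16 (liver and duodenum 27). With 3 libraries per tissue this cannot exclude that equal numbers stand for the same animal. With a replicate block 89 of 90 values kept their call, and the range of Cldn23 over the sections came to 0.93. Depth is unknown, so no limit from counting can be given. Apart from the shares, the cause of these changes was not tested.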
